A study of Mus musculus with 4 samples.

Results

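The genes described here are 31 genes of meiotic chromosomes and recombination, taken by symbol from a deposited count table of 22609 mouse genes, in which all 31 symbols occur. They cover the synaptonemal complex, the meiotic cohesin subunits, the axis proteins, the machinery that makes and repairs meiotic DNA breaks, and 5 germ cell proteins of other roles. Polyadenylated RNA of whole testes from mice of postnatal day 3 on a dominant C57BL/6J background was sequenced as 4 libraries. In 2 mutant libraries the thyroid hormone receptor TR_alpha_1 was labelled dominant negative, meaning that it interferes with the normal receptor, and in 2 wild-type libraries it was labelled wild type. Values of a pair are given as replicate 1, then replicate 2. Parents were AmhCre mice and carriers of the TRαAMI allele. The Amh promoter drives Cre recombinase in Sertoli cells, the somatic cells that surround the germ cells, so the receptor of the germ cells themselves is not the one targeted, and the series' title restricts the mutation to Sertoli cells. Which of the alleles each wild-type animal carried, and whether a library came from 1 animal or from several, is not stated, so p-values reflect the spread of these samples alone, which may be technical.

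In meiosis, homologous chromosomes are held along a protein axis of cohesin and HORMA domain proteins, joined by the zipper-like synaptonemal complex, and recombined through programmed DNA breaks. In male mice meiosis starts in the second week after birth, and at postnatal day 3 the germ cells are prospermatogonia and early spermatogonia. Transcripts of meiotic genes at this age are therefore those made before meiosis, and several of them, among them Tex genes and Taf7l, are known as transcripts of mouse spermatogonia. Breast cancer gene Brca2 and the mismatch repair gene Mlh3 also act in dividing somatic cells. In cells that are not germ cells, promoters of many such genes are held silent, in mouse by a complex that contains the DNA-binding proteins E2F6 and MGA.

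Because several genes fell together in mutant testes, the windows around their start sites are shown for the 6 called genes that have one and, for contrast, for Tex12, which was not called and was picked because it holds both sets of letters below. Each window runs from 250 bases before to 50 bases after the start, in the direction of transcription, from RefSeq on GRCm38.p6, a later build than the mm9 build of the counts. Capitals mark the 6 letters TCCCGC (the core bound by E2F factors, here also as GCGGGA on the other strand) and CACGTG (an E-box, the kind of site bound by MGA with its partner MAX, which reads alike on both strands).
Sycp1, chr3:102936051-102936350, minus strand: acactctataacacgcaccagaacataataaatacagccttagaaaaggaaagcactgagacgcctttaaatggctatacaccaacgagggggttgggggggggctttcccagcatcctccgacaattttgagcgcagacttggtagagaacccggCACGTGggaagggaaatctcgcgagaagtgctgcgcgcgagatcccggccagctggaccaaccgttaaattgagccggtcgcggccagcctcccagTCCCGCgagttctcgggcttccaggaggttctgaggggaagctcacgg
Sycp3, chr10:88459337-88459636, plus strand: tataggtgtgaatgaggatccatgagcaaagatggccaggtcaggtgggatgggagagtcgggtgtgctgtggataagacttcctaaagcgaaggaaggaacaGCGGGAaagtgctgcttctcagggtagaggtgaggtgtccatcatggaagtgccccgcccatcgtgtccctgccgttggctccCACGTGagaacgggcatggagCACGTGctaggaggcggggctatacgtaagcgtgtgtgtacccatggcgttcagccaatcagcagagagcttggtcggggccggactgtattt
Syce1, chr7:140787805-140788104, minus strand: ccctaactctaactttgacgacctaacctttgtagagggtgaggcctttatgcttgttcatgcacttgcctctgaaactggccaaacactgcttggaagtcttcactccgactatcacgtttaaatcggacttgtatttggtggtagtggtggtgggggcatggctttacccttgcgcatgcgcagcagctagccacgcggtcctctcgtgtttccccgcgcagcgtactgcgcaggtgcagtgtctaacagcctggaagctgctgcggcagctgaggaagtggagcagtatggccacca
Stag3, chr5:138280259-138280558, plus strand: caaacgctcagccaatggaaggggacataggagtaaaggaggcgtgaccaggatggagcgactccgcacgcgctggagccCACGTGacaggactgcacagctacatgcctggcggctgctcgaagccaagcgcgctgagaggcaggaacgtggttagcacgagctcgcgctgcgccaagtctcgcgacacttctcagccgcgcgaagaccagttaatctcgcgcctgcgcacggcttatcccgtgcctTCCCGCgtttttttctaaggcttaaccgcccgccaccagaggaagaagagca
Taf7l, chrX:134476441-134476740, minus strand: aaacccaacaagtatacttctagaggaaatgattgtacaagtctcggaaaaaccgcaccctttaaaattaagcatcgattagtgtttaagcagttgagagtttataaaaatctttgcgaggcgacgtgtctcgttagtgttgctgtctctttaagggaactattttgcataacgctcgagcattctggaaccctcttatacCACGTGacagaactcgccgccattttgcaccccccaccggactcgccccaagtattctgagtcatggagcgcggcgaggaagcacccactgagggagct
Tex19.1, chr11:121145893-121146192, plus strand: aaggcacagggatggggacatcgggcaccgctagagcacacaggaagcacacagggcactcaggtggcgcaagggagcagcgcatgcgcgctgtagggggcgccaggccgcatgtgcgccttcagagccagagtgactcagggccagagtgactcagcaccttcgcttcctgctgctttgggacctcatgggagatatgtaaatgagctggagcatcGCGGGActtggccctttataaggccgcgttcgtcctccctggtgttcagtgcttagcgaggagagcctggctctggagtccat
Tex12, chr9:50561219-50561518, minus strand: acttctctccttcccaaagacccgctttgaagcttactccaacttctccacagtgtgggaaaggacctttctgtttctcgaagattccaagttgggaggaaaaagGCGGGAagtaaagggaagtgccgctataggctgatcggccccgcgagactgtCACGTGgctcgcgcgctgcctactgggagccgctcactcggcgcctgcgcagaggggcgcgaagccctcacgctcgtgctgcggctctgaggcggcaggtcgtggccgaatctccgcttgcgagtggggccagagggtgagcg
Of the 6 called genes shown, 3 hold both sets of letters (Sycp1, Sycp3 and Stag3), Taf7l holds CACGTG alone, Tex19.1 holds TCCCGC alone, and Syce1 holds neither. CACGTG occurred in 4 of these 6 windows and in 4 of the 25 windows of the 21 other genes that have one. For TCCCGC it was 4 of 6 and 15 of 25, and for both together 3 of 6 and 4 of 25. Some of the 21 genes entered with more than 1 window, and each window of Hormad1 held both sets of letters. The counts out of 25 are therefore of windows and not of genes. Whether the letters bear on the fall was not tested. RefSeq windows were matched for 27 of the 31 genes, all but Spo11, Tex15, Tex11 and Taf4b. TCCCGC was present for 16 of the 27 genes (59.3%), against 39.2% of the 10425 tested genes with a window and 22.0% of all 27025 genes with one. CACGTG was present for 7 of them (25.9%), against 11.6% of tested genes and 8.1% of all genes. Both were present for 6 of them (22.2%), namely Hormad1, Stag3, Syce2, Sycp1, Sycp3 and Tex12, against 4.4% of tested genes and 2.3% of all genes. Some genes have more than 1 start site in RefSeq, and a gene was counted when any of its windows held the letters. In 3 of the 31 windows of the 27 genes TCCCGC overlapped GGGCGG, the letters of a GC box. Such matches describe letters and show no binding.

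Nearly all of these genes were already transcribed before meiosis. Of the 31, 29 had at least 10 counts and at least 1 CPM (counts scaled to a common library size) in both wild-type libraries, and Spo11 and Msh4 lay at the floor. Markers of spermatocytes and spermatids were mostly at the floor. The 16 genes of that list, among them the protamine genes Prm1 and Prm2, summed to 4.82 and 2.75 CPM in the mutant pair, against 4.36 and 4.31 CPM in the wild-type pair. Of these, 14 were too low to test, and the largest value of the 16 in any library was 1.91 CPM. The 2 that were tested, Piwil1 and Ccna1, met the same threshold as the 29 genes. In the wild-type pair Piwil1 was read at 1.43 and 1.08 CPM and Ccna1 at 1.13 and 1.27 CPM. The weakest of the 29 were little higher, such as Mei1 at 1.95 and 1.67 CPM, so their levels are not set apart from these markers.

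Levels of different genes were set beside each other as RPKM, which is CPM divided by the length in kilobases of the union of a gene's exons in the GENCODE M1 annotation of the mm9 assembly. That union can be longer than the transcript made here, which lowers the value. In wild-type testes 8 of the 31 genes stood at 10 RPKM or more, 16 at 1 to under 10 and 7 under 1. The highest was Tex19.1, a mammal-specific germ cell protein that restrains retrotransposons, at 17.2 ± 0.638 RPKM in mutant and 41.4 ± 17.4 RPKM in wild-type testes (SD, n = 2 each), and its wild-type mean was above that of 87.3% of tested genes. Next came Taf7l, a germ cell form of a TFIID transcription factor subunit, at 11.1 ± 1.96 RPKM in mutant and 30.1 ± 7.81 RPKM in wild-type testes. Wild-type ranges of these neighbours overlapped, 29.1 to 53.7 RPKM for Tex19.1 and 24.6 to 35.6 RPKM for Taf7l, so their order is not fixed. Trip13, Syce2, Tex101, Sycp3 and Psmc3ip followed, Syce2 with a wild-type mean of 23.9 RPKM and Sycp3 with one of 19.6 RPKM, and the ranges of neighbours among them overlapped as well.

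At the other end were mostly genes of break formation and of crossovers. Hormad2, Msh5, Mei4, Prdm9 and Mei1 had wild-type means between 0.438 and 0.762 RPKM, and Msh4 and Spo11 had 0.0817 and 0.0700 RPKM. Spo11, the enzyme that makes the meiotic DNA breaks, had 10 and 7 counts in the mutant pair, against 6 and 1 counts in the wild-type pair. Msh4, a partner of Msh5 in stabilising recombination intermediates, had 8 and 10 counts in the mutant libraries, against 5 and 3 counts in the wild-type libraries. Neither gene passed the expression filter. Their count ratios, mutant over wild type, were 2.14 (exact 95% interval 0.845 to 6.11) for Spo11 and 1.99 (0.821 to 5.28) for Msh4, intervals that cover counting error only and both include no difference. No difference in either was therefore shown at this depth. In CPM both mutant libraries of Msh4 lay above both wild-type libraries, as in 28.3% of all tested genes, and the groups of Spo11 overlapped.

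**Figure D1:**
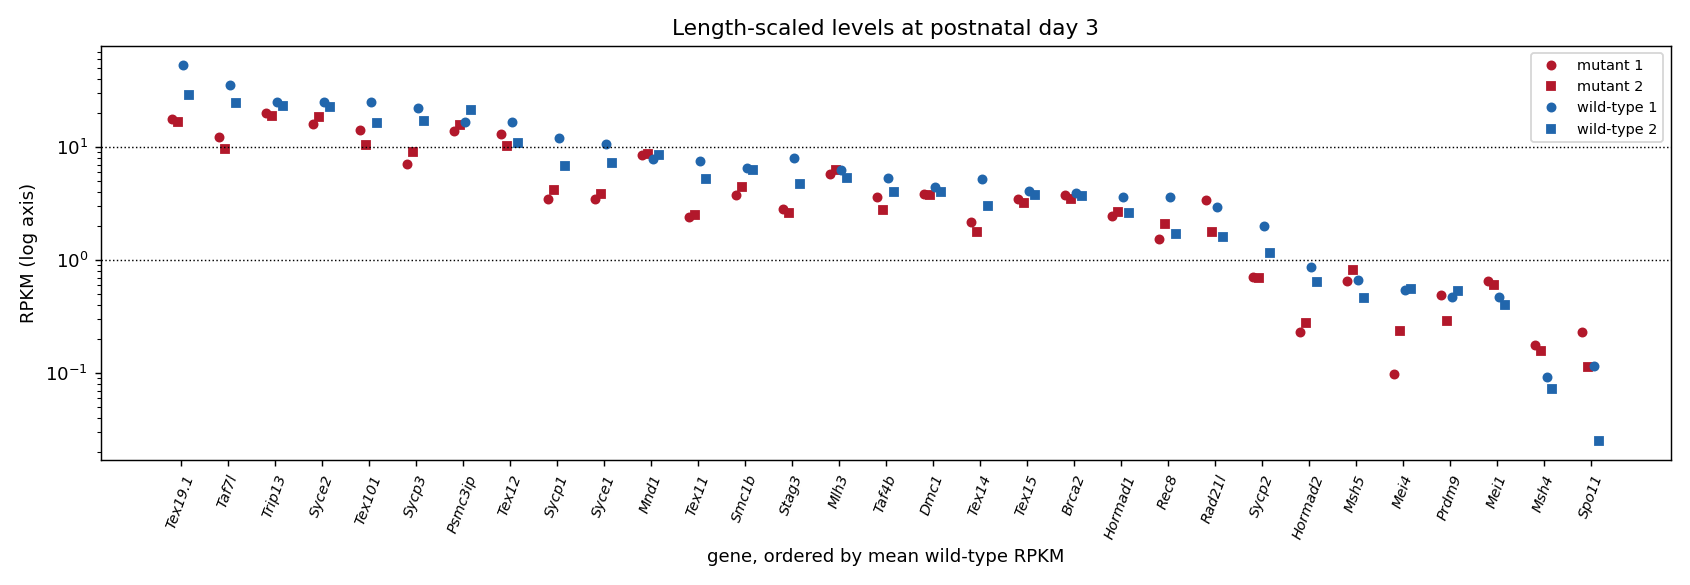
RPKM on a log axis of the 31 genes in each of the 4 libraries, ordered by the wild-type mean, with dotted lines at 1 and 10 RPKM. Tex19.1 and Taf7l stand at the high end and Msh4 and Spo11 at the low end, and for Sycp3, Sycp1, Syce1, Tex11 and Stag3 both mutant points lie under both wild-type points.

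Between the genotypes, 7 of the 29 genes that passed the filter fell in mutant testes and none rose, by edgeR's quasi-likelihood test with Benjamini-Hochberg adjustment over all 14788 tested genes. Those 7 were Sycp1, Sycp3 and Syce1 of the synaptonemal complex, the cohesin gene Stag3, the crossover gene Tex11, Tex19.1 and Taf7l, and they fell between 2.35-fold and 2.75-fold. Over all tested genes 2.52% were called lower and 3.15% higher, while 24.1% of these 29 genes were called lower. The median log2 fold change, mutant minus wild type, was -0.56 over the 29 genes and -0.0060 over all tested genes. Both mutant libraries lay below both wild-type libraries in 19 of the 29 (65.5%), against 29.0% of all tested genes, and above them in 2, Mei1 and Mnd1, against 28.3% of all tested genes. Hormad2 passed the filter through its wild-type libraries alone, so it could be tested only by being higher in wild type, and the counts over the 29 genes include it. Without wild-type replicate 1 none of these genes was called, in a fit that called 40 genes lower in all. Without mutant replicate 2 the number called lower was 11, of 477 in all, and without mutant replicate 1 it was 10, of 334 in all. Each of these fits has 1 library in an arm, which is assumed to vary like the other group.

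**Figure D2:**
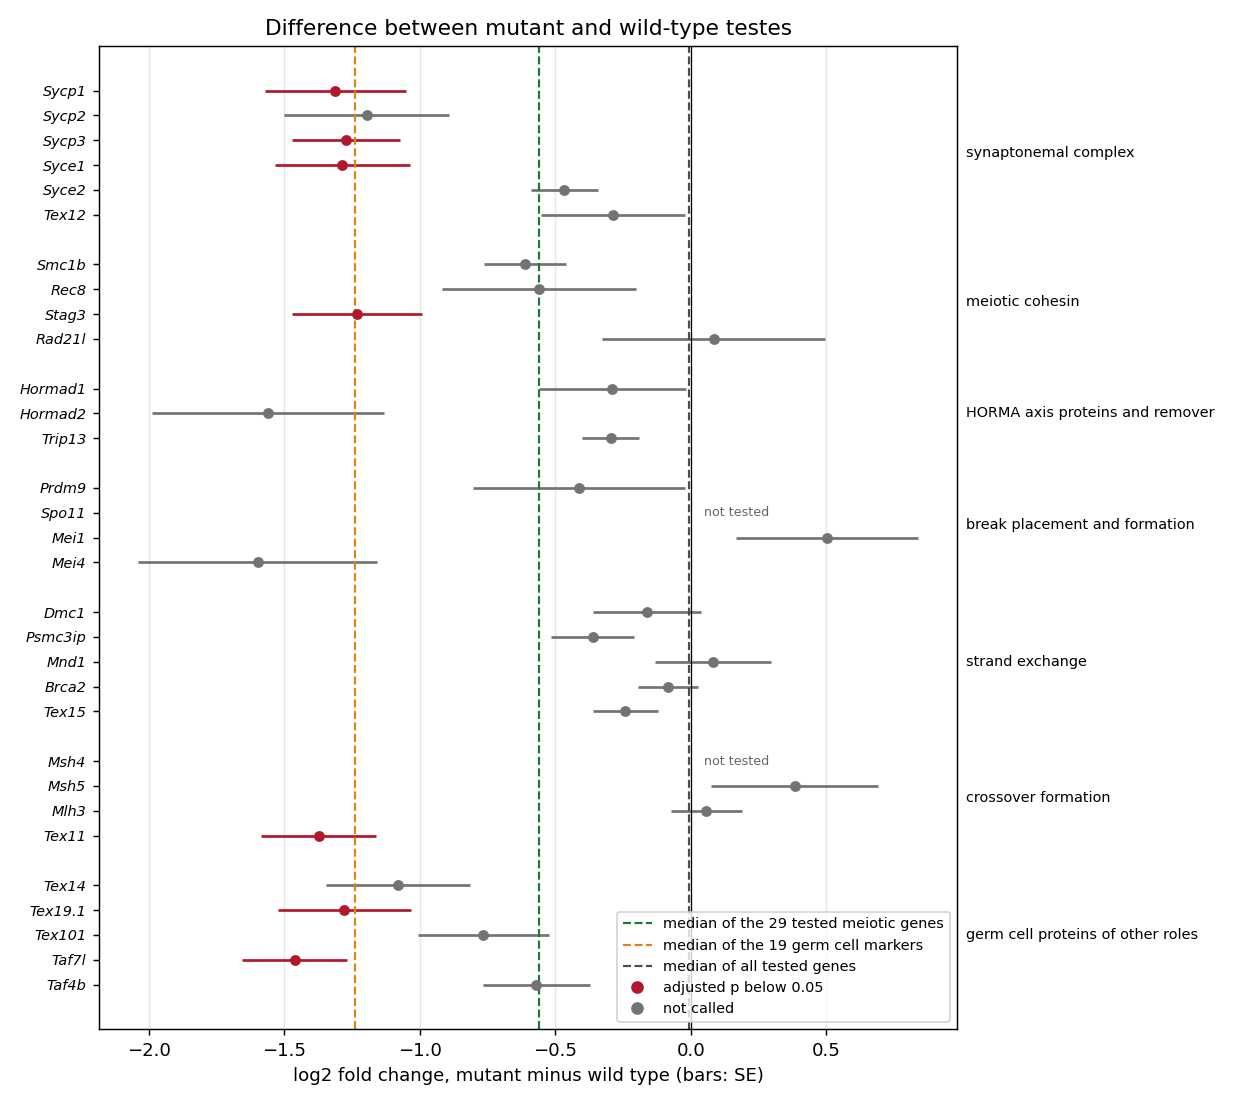
Log2 fold change, mutant minus wild type, with its SE for the 29 tested genes by role, in red where the adjusted p was below 0.05 and in grey where it was not. The 7 red points lie between -1.46 and -1.23, near the median of the germ cell markers at -1.24, and the strand exchange genes lie between -0.36 and 0.08.

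In the synaptonemal complex all 6 genes had negative fold changes, and 3 fell. Of the 14788 tested genes 7515 had negative fold changes, and 2.52% were called lower. Sycp1 (chromosome 3, 102622422 to 102740023, minus strand, mm9) encodes the transverse filament that spans the zipper. It was read at 12.0 and 14.6 CPM in the mutant pair, against 42.0 and 23.8 CPM in the wild-type pair. The groups did not overlap, but wild-type replicate 1 stood far above wild-type replicate 2. The log2 fold change was -1.31 ± 0.26 (SE; adjusted p = 0.0311), and it stood at -0.83 (adjusted p = 0.12) without wild-type replicate 1 and missed the threshold with limma voom (adjusted p = 0.0515). Sycp3 (chromosome 10, 87922314 to 87935981, plus strand), a filament protein of the lateral elements, was read at 8.92 and 11.5 CPM in the mutant libraries, against 27.9 and 21.7 CPM in the wild-type libraries. Each mutant value was under each wild-type value, with a log2 fold change of -1.27 ± 0.20 (adjusted p = 0.0173), or -1.07 without wild-type replicate 1 (adjusted p = 0.106). Of the 1264 exon bases of Sycp3, 660 are shared with Chpt1, a phospholipid enzyme gene on the other strand, and strand use in counting is not given. Chpt1 itself stood at 81.5 and 93.2 CPM in mutant and at 90.2 and 85.4 CPM in wild-type testes.

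Syce1 (chromosome 7, 147963128 to 147973753, minus strand), a central element protein, was read at 5.10 and 5.68 CPM in the mutant pair, against 15.5 and 10.7 CPM in the wild-type pair. The groups were apart, and the log2 fold change was -1.29 ± 0.25 (adjusted p = 0.0293), and it was not called when wild-type replicate 1 or 2 was left out (-0.98 and -1.51, adjusted p = 0.134 and 0.0525). Sycp2, the lateral element partner of Sycp3, was read at 4.28 and 4.15 CPM in mutant and at 11.9 and 6.96 CPM in wild-type testes. Its groups did not overlap either, but it missed the threshold (log2 fold change -1.20 ± 0.31, adjusted p = 0.0603) and passed it without mutant replicate 1 (adjusted p = 0.0328). The other central element genes differed less. Syce2 was read at 31.4 and 36.4 CPM in mutant and at 49.5 and 44.4 CPM in wild-type testes, with a log2 fold change of -0.47 ± 0.12 (adjusted p = 0.0647) that passed without mutant replicate 2 (adjusted p = 0.0374). Tex12, which assembles with Syce2 into fibres, was read at 8.01 and 6.38 CPM in mutant and at 10.3 and 6.76 CPM in wild-type testes, where the groups overlapped (-0.29 ± 0.27, adjusted p = 0.54).

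Of the 4 meiotic cohesin genes 1 fell, against 2.52% called lower over all tested genes. Stag3 (chromosome 5, 138721468 to 138753621, plus strand), the STAG subunit found in meiotic cohesin, was read at 16.2 and 15.1 CPM in the mutant pair, against 45.7 and 26.9 CPM in the wild-type pair. The mutant values lay close together below 2 unequal wild-type values, with a log2 fold change of -1.23 ± 0.24 (adjusted p = 0.0296) that was -0.79 without wild-type replicate 1 (adjusted p = 0.106). Smc1b, the meiotic counterpart of Smc1a, was read at 15.4 and 18.1 CPM in mutant and at 26.3 and 25.2 CPM in wild-type testes. Its wild-type libraries were alike, and at -0.61 ± 0.15 it missed the threshold by a small margin (adjusted p = 0.0546), passing without mutant replicate 2 (adjusted p = 0.0348). The kleisin genes, whose proteins close the cohesin ring, overlapped between the groups. Rec8 was read at 4.28 and 5.75 CPM in mutant and at 9.91 and 4.71 CPM in wild-type testes (-0.56 ± 0.36, adjusted p = 0.364), the high value being wild-type replicate 1. Rad21l was read at 5.64 and 2.94 CPM in mutant and at 4.88 and 2.65 CPM in wild-type testes (0.08 ± 0.41, adjusted p = 0.923).

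No gene of the axis proteins was called. Trip13, the ATPase that removes HORMA proteins and also serves the mitotic checkpoint, was read at 45.9 and 43.0 CPM in mutant and at 56.6 and 52.3 CPM in wild-type testes (-0.30 ± 0.10, adjusted p = 0.127). Hormad1, which recruits break factors to the axis, was read at 4.28 and 4.60 CPM in mutant and at 6.23 and 4.51 CPM in wild-type testes, with overlap (-0.29 ± 0.27, adjusted p = 0.543). Hormad2, which marks unpaired axes, had 7 and 12 counts in the mutant libraries, against 32 and 18 counts in the wild-type libraries. The groups were apart, yet at these low counts the log2 fold change of -1.56 ± 0.43 was not called (adjusted p = 0.07).

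Break factors were rare and none was called. Prdm9, the methyltransferase that places recombination hotspots, had 24 and 20 counts in the mutant pair, against 28 and 24 counts in the wild-type pair (-0.41 ± 0.39, adjusted p = 0.55). Mei4, which works with other proteins to let Spo11 cut, had 5 and 17 counts in mutant and 33 and 26 counts in wild-type libraries. Its mutant libraries differed from each other, and its log2 fold change of -1.60 ± 0.44 (adjusted p = 0.0707) became -2.44 without mutant replicate 2 (adjusted p = 0.0228) and -1.20 without mutant replicate 1. Of the 4586 exon bases of Mei4, 186 are shared with Gm16875 on the other strand. Mei1, needed for break formation, was the gene with the highest fold change of the 29, with 30 and 39 counts in mutant and 26 and 17 in wild-type libraries (0.50 ± 0.34, adjusted p = 0.384).

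None of the 5 strand exchange genes was called, and their fold changes were small. Dmc1, the meiotic recombinase, was read at 8.46 and 8.30 CPM in mutant and at 9.76 and 8.92 CPM in wild-type testes (-0.16 ± 0.20, adjusted p = 0.651). Its partner genes Psmc3ip (also known as Hop2) and Mnd1 had log2 fold changes of -0.36 ± 0.15 (adjusted p = 0.185) and 0.08 ± 0.21 (adjusted p = 0.846). Psmc3ip shares 385 of its 1818 exon bases with Mlx on the other strand. Brca2, which loads recombinases onto DNA, was read at 40.3 and 37.4 CPM in mutant and at 42.6 and 39.6 CPM in wild-type testes, where the groups overlapped (-0.08 ± 0.11, adjusted p = 0.68). Tex15, a germ cell protein needed for loading recombinases at breaks, was read at 33.6 and 30.7 CPM in mutant and at 39.4 and 36.4 CPM in wild-type testes (-0.24 ± 0.12, adjusted p = 0.249). That none of the 5 was called does not show that their levels were equal.

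Among crossover genes Tex11 stood apart in value. This X-linked gene (chromosome X, 98033987 to 98255006, minus strand), whose protein promotes crossovers in male mice, was read at 8.83 and 9.13 CPM in the mutant pair, against 27.2 and 19.0 CPM in the wild-type pair. Both mutant libraries lay well under both wild-type libraries, with a log2 fold change of -1.37 ± 0.21 (adjusted p = 0.0171), or -1.08 without wild-type replicate 1 (adjusted p = 0.087). Msh5 had 40 and 71 counts in mutant and 49 and 26 counts in wild-type libraries (0.38 ± 0.31, adjusted p = 0.477). Mlh3, which acts in cutting crossover intermediates, was read at 32.3 and 35.2 CPM in mutant and at 35.1 and 29.7 CPM in wild-type testes (0.06 ± 0.13, adjusted p = 0.827). The groups overlapped in both genes.

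All 5 germ cell proteins of other roles had both mutant libraries below both wild-type libraries, as 29.0% of all tested genes had. Of the 5, 2 fell, against 2.52% called lower over all tested genes. Taf7l (chromosome X, 130994657 to 131011029, minus strand) was read at 27.9 and 21.7 CPM in the mutant pair, against 80.0 and 55.2 CPM in the wild-type pair. It had the smallest adjusted p of the 31 genes, with a 2.75-fold fall (log2 fold change -1.46 ± 0.19, adjusted p = 0.0104), and was at -1.17 without wild-type replicate 1 (adjusted p = 0.0713). Tex19.1 (chromosome 11, 121007457 to 121009633, plus strand) was read at 33.0 and 31.3 CPM in mutant and at 101 and 54.5 CPM in wild-type testes. The wild-type libraries differed from each other more than the mutant ones, and the log2 fold change of -1.28 ± 0.25 (adjusted p = 0.0291) was -0.76 without wild-type replicate 1 (adjusted p = 0.0765). Tex14, a protein of the bridges that join germ cells, was read at 11.0 and 9.00 CPM in mutant and at 26.1 and 15.3 CPM in wild-type testes. It missed the threshold (-1.08 ± 0.27, adjusted p = 0.0547) and passed it without mutant replicate 1 (adjusted p = 0.00539), without mutant replicate 2 (adjusted p = 0.0394), without wild-type replicate 2 (adjusted p = 0.0464) and with DESeq2 (adjusted p = 0.0129). Tex101, a surface protein of germ cells, was at -0.77 ± 0.24 (adjusted p = 0.0992), passing without mutant replicate 1 (adjusted p = 0.0164), and Taf4b, a germ cell TFIID subunit, was at -0.57 ± 0.20 (adjusted p = 0.121).

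**Figure D3:**
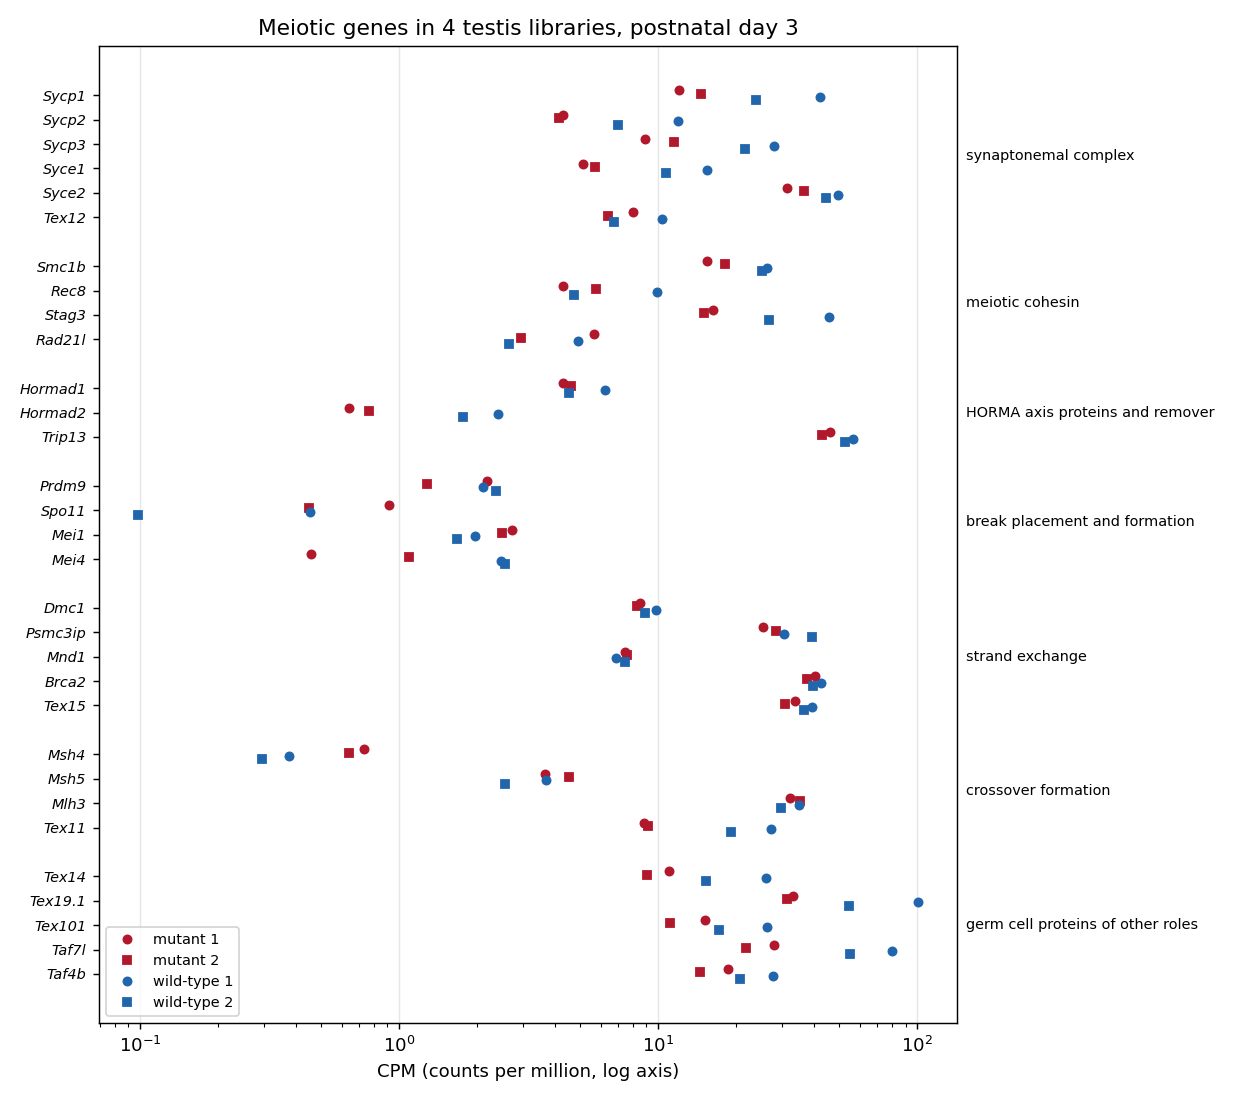
CPM on a log axis of the 31 genes by role in mutant (red) and wild-type (blue) libraries, with circles for replicate 1 and squares for replicate 2. Wild-type replicate 1 is the farthest right for most genes of the synaptonemal complex and of the group at the foot of the plot, while the points of the strand exchange genes lie close together.

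Most germ cell markers were lower as well. Of 19 markers of the newborn's germ cells, 13 fell, none rose and 6 were not called, while 2.52% of all tested genes were called lower. Their median log2 fold change was -1.24, against -0.56 over the 29 meiotic genes. Those not called included Kit (-0.24), Gfra1 (-0.45) and Piwil4 (0.47), and Piwil4 had both mutant libraries above both wild-type libraries. Without wild-type replicate 1 the median of the markers was -0.84, and most of their calls were lost. Nanos2, an RNA-binding protein of male germ cells, passed the filter through its wild-type libraries alone (4 and 2 counts in mutant, 40 and 24 counts in wild-type testes), so it had to be higher in wild type. With it left out, 12 of 18 markers fell, with a median of -1.19. Ddx4, an RNA helicase of germ cells, was read at 63.6 and 49.5 CPM in mutant and at 110 and 84.7 CPM in wild-type testes (-0.80 ± 0.16, adjusted p = 0.0304), and Dazl, an RNA-binding protein, at 112 and 107 CPM in mutant and 328 and 228 CPM in wild-type testes (-1.34 ± 0.16, adjusted p = 0.007). The call of Ddx4 was lost without either wild-type library (adjusted p = 0.14 and 0.0583), while Dazl was called whichever library was left out. In whole testes fewer germ cells and less RNA per germ cell cannot be told apart. The 31 meiotic genes summed to 435 and 424 CPM in the mutant pair, against 772 and 585 CPM in the wild-type pair. The 19 markers summed to 499 and 439 CPM in mutant and to 1189 and 829 CPM in wild-type libraries. The ratio of the sums was 0.870 and 0.965 in mutant and 0.650 and 0.705 in wild-type libraries, so the meiotic sum was lower by less than the germ cell sum. No test was made of that ratio, and its sums are led by the most abundant genes. The meiotic sum also holds Trip13, Brca2 and Mlh3, which serve dividing cells too, with log2 fold changes of -0.30, -0.08 and 0.06. Their part in the ratio was not tested.

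**Figure D4:**
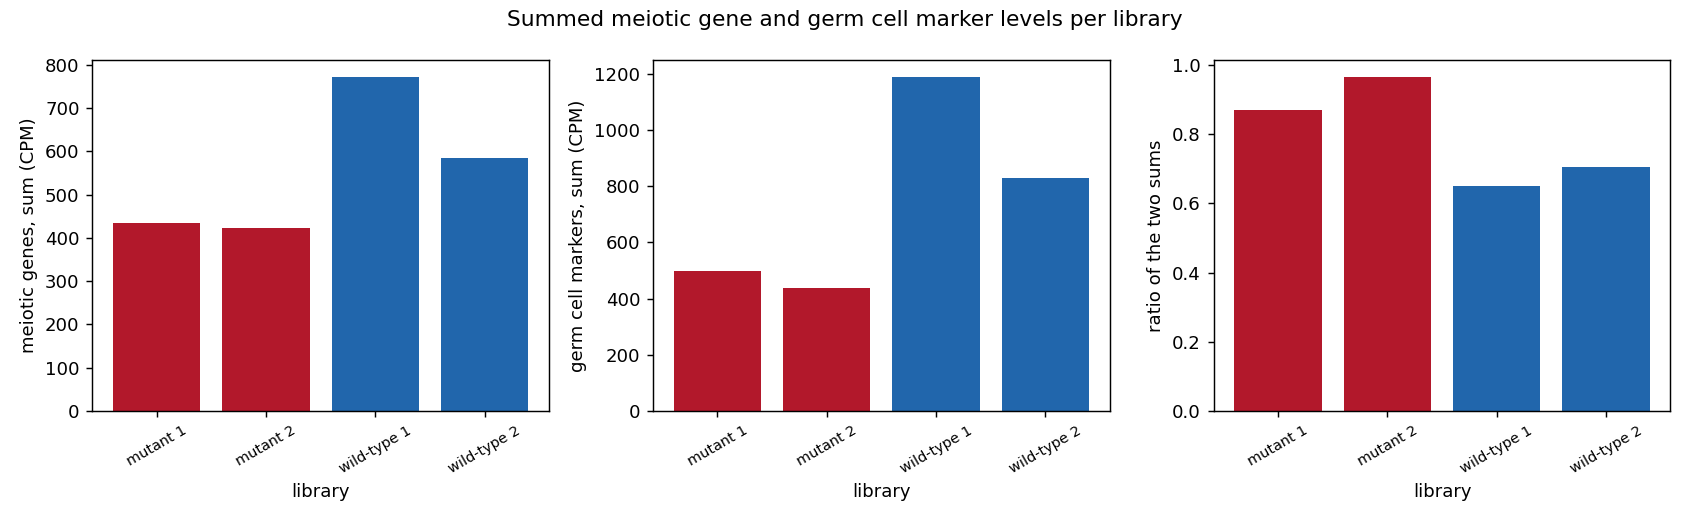
Summed CPM of the 31 meiotic genes (left), of the 19 germ cell markers (middle) and their ratio (right) in each library, mutant in red and wild-type in blue. Both sums are lower in the mutant libraries, and the ratio is 0.870 and 0.965 there, against 0.650 and 0.705 in the wild-type libraries.

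In 25 of the 29 tested genes wild-type replicate 1 stood above wild-type replicate 2. The share over all tested genes was not determined, so this tilt is not shown to be particular to these genes. The median ratio of replicate 1 over replicate 2 was 1.02 among mutant and 1.36 among wild-type libraries. By role the wild-type ratio had medians of 1.77 for cohesin, 1.54 for the germ cell proteins of other roles, 1.49 for the synaptonemal complex and 1.08 for strand exchange. For the germ cell markers it was 1.44, and for the other meiosis genes described below it was 1.17. For the other marker lists below it was 0.96 (Sertoli), 0.81 (Leydig), 0.94 (muscle), 0.86 (fat cell) and 0.88 (leukocyte). With wild-type replicate 1 left out, all 7 called genes kept negative fold changes, between -1.17 and -0.76. Their calls were lost in that fit, and the calls over all genes shrank as well. The fit has 1 wild-type library, so the part of the left-out library cannot be told apart from the loss of a replicate.

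**Figure D5:**
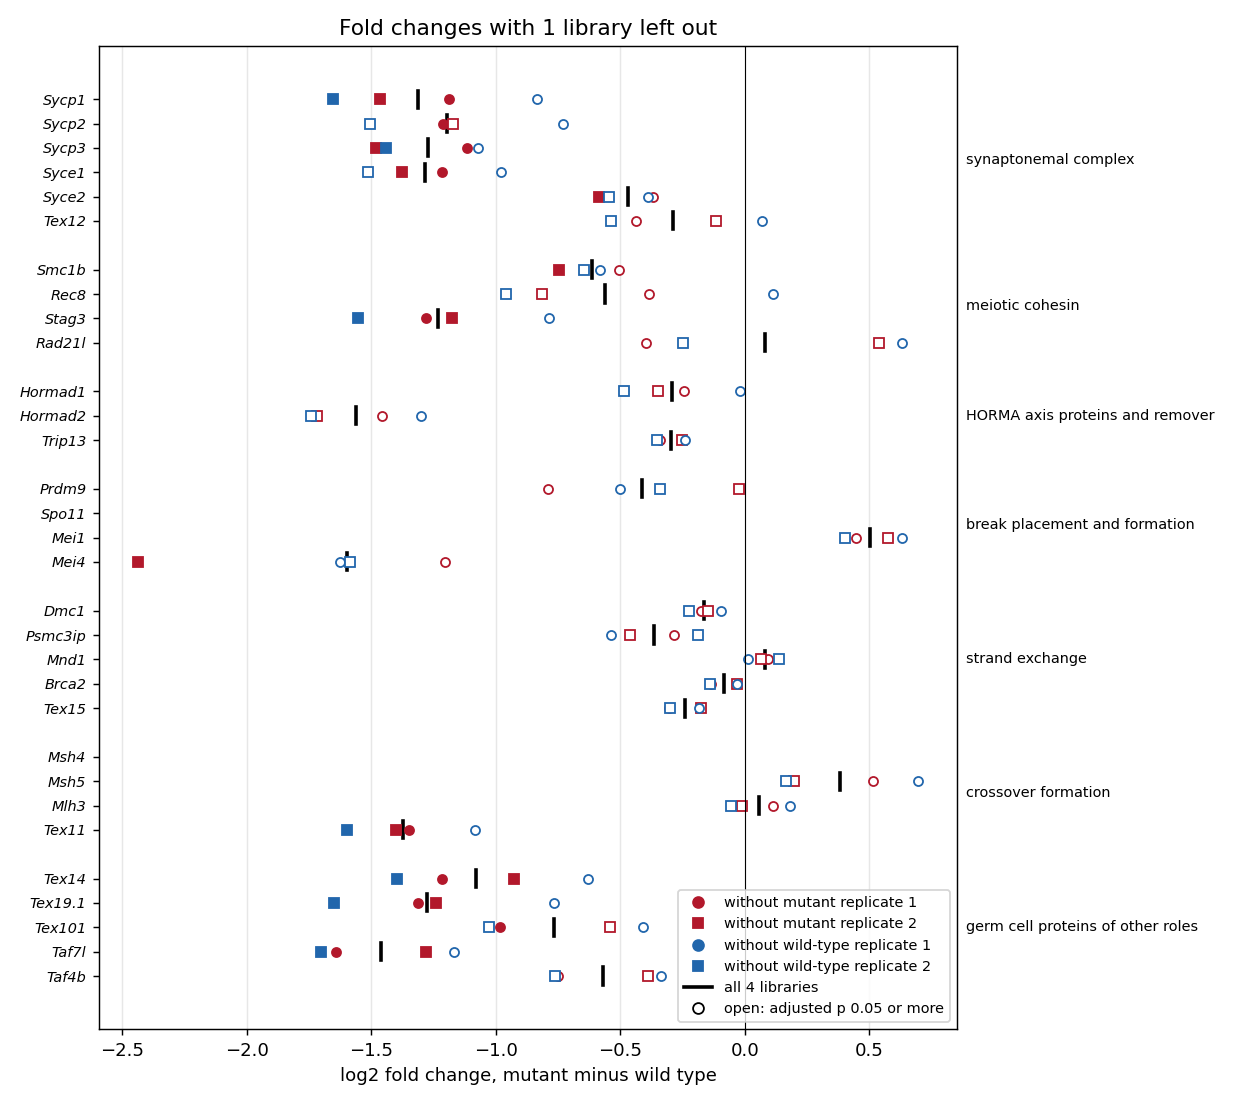
Log2 fold change of the 29 tested genes with all 4 libraries (black bar) and with each library left out (points, filled where the adjusted p was below 0.05). The points without wild-type replicate 1 (blue circles) lie nearest to 0 for each of the 7 called genes and are open throughout.

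Other genes of meiosis made a separate list of 45, of which 38 occur in the table and 37 were tested. This list gave 4 lower and no higher calls, with a median log2 fold change of -0.16. Of all tested genes 2.52% were called lower and 3.15% higher. Stra8, which drives entry into meiosis, was read at 1.46 and 2.23 CPM in the mutant pair, against 31.1 and 13.2 CPM in the wild-type pair (-3.56 ± 0.48, adjusted p = 0.0104). Fkbp6, a chaperone partner needed for male meiosis, fell 2.57-fold (33.9 and 31.5 CPM in mutant, 97.9 and 69.5 CPM in wild-type testes, adjusted p = 0.0074). Ccnb1ip1 (also known as Hei10), which selects crossover sites, fell 3.19-fold (1.37 and 1.09 CPM in mutant, 4.21 and 3.43 CPM in wild-type testes, adjusted p = 0.0356), and Mov10l1, an RNA helicase of the piRNA pathway, fell 1.98-fold (19.9 and 15.7 CPM in mutant, 40.6 and 29.1 CPM in wild-type testes, adjusted p = 0.0303). Stra8 and Fkbp6 were called in each leave-one-out fit, whereas Mov10l1 was not without wild-type replicate 1 (adjusted p = 0.137) and Ccnb1ip1 was not without wild-type replicate 1, wild-type replicate 2 or mutant replicate 2 (adjusted p = 0.178, 0.106 and 0.0667). With wild-type replicate 1 left out, 2 of the list were called, and its median was 0.01. The share lower, 4 of 37, and that of the 29 genes, 7 of 29, were not compared by a test.

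Over the whole series the libraries held 10230512 to 15636832 gene counts, and log2 CPM correlated at 0.988 within the mutant pair and 0.991 within the wild-type pair, against 0.965 to 0.980 between the groups. Sertoli cell markers (8 genes) summed to 2532 and 2553 CPM in mutant and to 3208 and 3465 CPM in wild-type libraries. Aard and Cldn11 were called lower and the other 6 were not called, with a median log2 fold change of -0.14. Aard alone was read at 646 and 748 CPM in mutant and at 1227 and 1584 CPM in wild-type testes. Amh (-0.02), Fshr (0.11) and Sox9 (-0.42) were among those not called. Leydig cell markers (5 genes) summed to 1160 and 1139 CPM in mutant and to 947 and 1059 CPM in wild-type libraries. Both somatic cell types of the labelled tissue were thus represented. Muscle genes (8, led by Acta1) summed to 2419 and 625 CPM in mutant and to 12.9 and 12.3 CPM in wild-type libraries. Leukocyte markers (6) summed to 164 and 191 CPM in mutant and to 94.4 and 108 CPM in wild-type libraries, and fat cell markers (4, with Fabp4) to 27.2 and 26.2 CPM in mutant and to 73.5 and 81.7 CPM in wild-type libraries. The part of these tissues in the differences of the meiotic genes was not tested.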

How the data were processed

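RNA libraries from whole testes of postnatal day 3 mice, 2 mutant and 2 wild-type, were grouped by their titles. TopHat 1.4.0, CASAVA 1.8.1, DESeq2, HTSeq and the mm9 build are named in the submitters' processing notes without their roles. In the table that the authors deposited, values are classed as estimated counts only because 5 lines under the gene rows are percentages. Gene values are whole numbers and sum to the table's own total of unique reads in genes. They were tested as counts, without rounding. The authors' counting mode, strand setting and annotation are not stated.

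Counts were tested with edgeR 4.0.16 (R 4.3.3), using the quasi-likelihood F test with TMM normalisation, the legacy and robust options off, a filter with a minimum count of 10 and total of 15, and genotype as the only term. Tests were two-sided, with adjusted p below 0.05 called. The SE is the fold change over the square root of F. CPM uses TMM-adjusted library sizes. The fit was also run on simulated counts in which all genes had the same dispersion. That run does not bear on the spread between these replicates. All member genes were named, with called genes of the other meiosis list. Members, lists and alternatives were chosen with earlier results of these data known. Alternatives included DESeq2 1.42.0 and limma 3.58.1 voom. Intervals cover counting error only.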

Additional observations from a re-analysis of the deposited data

How the results depend on the processing

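The 7 genes called lower were also called under both other scalings (median ratio, library size alone), both other filters, DESeq2, the legacy fit and the fit with a replicate block; limma voom called 6 of them, without Sycp1. Leaving out each library in turn gave 0 to 11 meiotic genes called lower, with 0 and 7 called without wild-type replicates 1 and 2, and 34 to 818 higher and 40 to 477 lower calls over all genes, against 466 and 373 with all libraries. Without a filter on low counts 282 genes were called higher and 218 lower, and limma voom called 309 higher; the cause was not tested. The median over the meiotic genes lay between -0.59 and -0.40 in the alternatives. Signs turned for 4 genes that were never called: Rad21l at -0.40 without mutant replicate 1 and -0.25 without wild-type replicate 2, Mlh3 at -0.0090 without mutant replicate 2 and -0.056 without wild-type replicate 2, and Tex12 at 0.068 and Rec8 at 0.11 without wild-type replicate 1. Over the leave-one-out fits these genes ranged from -0.40 to 0.63 (Rad21l), -0.056 to 0.18 (Mlh3), -0.54 to 0.068 (Tex12) and -0.96 to 0.11 (Rec8). Same-numbered libraries share only a number (correlation of their deviations -0.0257), and with it as a replicate block 512 genes were called higher, 341 lower and 8 meiotic genes lower, the eighth being Tex14. Low counts limit Spo11, Msh4, Hormad2, Mei4 and Prdm9.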

Other observations

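Counterparts of the meiotic genes in dividing cells, chosen after their values were seen, are given beside them. The kleisin gene Rad21 was read at 133 and 136 RPKM in mutant and at 148 and 138 RPKM in wild-type testes, against 1.82 ± 0.378 RPKM in mutant and 2.66 ± 1.34 RPKM in wild-type testes for Rec8 (SD, n = 2 each). The log2 fold change of Rad21 was -0.09 ± 0.09. Stag1 and Stag2, the STAG genes of mitotic cohesin, had log2 fold changes of 0.01 ± 0.08 and 0.20 ± 0.08, and Smc1a had 0.31 ± 0.09, none of them called by edgeR (adjusted p = 0.941, 0.171 and 0.0847). Taf7, the general counterpart of Taf7l, fell as well, to 57.4 and 62.9 CPM in mutant testes, against 95.4 and 92.2 CPM in wild-type testes (-0.64 ± 0.09, edgeR adjusted p = 0.0144), but was not called when wild-type replicate 1 or 2 was left out (adjusted p = 0.0851 and 0.0596), while Taf4a, the counterpart of Taf4b, was read at 27.9 and 29.2 CPM in mutant and at 26.7 and 25.8 CPM in wild-type testes. Tex19.2, the neighbouring paralog of Tex19.1, was at -0.58 ± 0.16 (edgeR adjusted p = 0.0676).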
